A study of Caenorhabditis elegans with 14 samples.

Results

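The comparison followed here is how the expression difference between 2 Caenorhabditis elegans strains, CB4856 and N2, changed between reproductive and old worms. The rule took the log2 ratio of CB4856 over N2 on the 5 arrays of age group T3 and subtracted that on the 4 arrays of age group T2, with the dye as covariate, so 9 of the 14 arrays of the series carry the comparison. CB4856 is a wild strain from Hawaii, and N2 is the laboratory strain. Both are hermaphrodite lines. RNA of both strains, each in 1 dye, was hybridized together on every array. Each sample was RNA of whole worms pooled from several dishes, after bleach synchronization and growth at one temperature on Escherichia coli, with males removed. T3 worms were harvested at 214 hr and T2 worms at 96 hr, in both strains alike. By the study's methods, worms of both ages spent a time on fluorodeoxyuridine (FUDR), which blocks DNA synthesis and keeps eggs from hatching, after the age of the first harvest at 40 hr (T1). The life span of the strains differs, so at the same hour they were not of the same physiological age. The ages here are the age groups of the labels, and a difference between ages cannot be told apart from one between physiological ages. Labels and methods do not say whether arrays of 1 group came from separate cultures, so p-values measure only the spread between these arrays.

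A strain-by-age interaction is the part of expression that neither strain nor age predicts alone. A gene has one when the 2 strains change by different amounts between the same ages, so that their difference widens, narrows or turns its sign. In C. elegans, reproductive hermaphrodites are filled with germ line, stored self sperm and embryos, whereas old worms have stopped laying eggs and carry the remains of the gonad within an aging intestine, epidermis and muscle. RNA of whole worms mixes all of these, and fewer cells of a type and less RNA per cell cannot be told apart in it.

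Each array held 22490 elements for worm transcripts, under 18879 different gene names. N2 was in Cy3 on replicates 1 to 3 of each age and in Cy5 on replicates 4 and 5, which carry the numbers of replicates 1 and 2 with the dyes exchanged. T3 had 2 such arrays and T2 had 1. Over the 9 arrays the median spot intensity was between 208 and 303 in Cy3 and between 191 and 255 in Cy5, above local backgrounds of between 163 and 176, and between 39.3% and 63% of elements exceeded their local background by more than 2 SD in a strain. Log2 ratios of 2 arrays correlated over elements by between 0.171 and 0.626 within T3, and by between 0.225 and 0.585 within T2. The SD of log2 ratios over all elements averaged 0.412 ± 0.0619 on T3 arrays and 0.453 ± 0.104 on T2 arrays (SD, n = 5 and 4), a difference within the spread between arrays (two-sided exact permutation test over the 9 arrays, p = 0.437, with 0.00794 the smallest p possible).

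Between T3 and T2 the strain difference changed for 42 of 22490 elements (0.187%), which stand for 40 gene names (limma, Benjamini-Hochberg adjusted p under 0.05). For 27 elements (0.120%) the ratio of CB4856 over N2 was higher at T3, and for 15 (0.0667%) it was lower. At an unadjusted p under 0.05 there were 754 higher (3.35%) and 678 lower (3.01%), and the median difference over all elements was -9e-04 on the log2 scale. The ratios of T3 arrays and T2 arrays did not overlap for any of the 42, against 2.80% of all elements. The calls were made on these same ratios, so this follows largely from the choice of elements. Without quantile normalization between arrays, 26 elements passed, 10 of them higher and 16 lower. Higher calls were also no more numerous than lower ones with a dye term for each age (10 and 10), without T2 replicate 2 (24 and 26), without T3 replicate 3 (14 and 16) and without T3 replicate 4 (10 and 10). When each dye exchange was averaged with the array of its number, 0 elements passed with limma. The list of 42 therefore rests on counting these arrays as separate samples. After averaging, 1399 elements had an unadjusted p under 0.05, against 1432 in the main fit, and chance alone gives such a p to a share of 0.05. With the session in which arrays were scanned as a block 17 passed, without T2 replicate 4 the number was 11, and among the 10823 elements with both strains above background on at least 5 of the 9 arrays it was 3. With each of the 9 arrays left out in turn, 10 elements were called every time, namely T20D4.7, C29F9.14, btb-14, mul-1, Y32B12C.1, K03D3.2, fbxb-97, C07G1.7, F14H12.6 and sams-5.

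**Figure D1:**
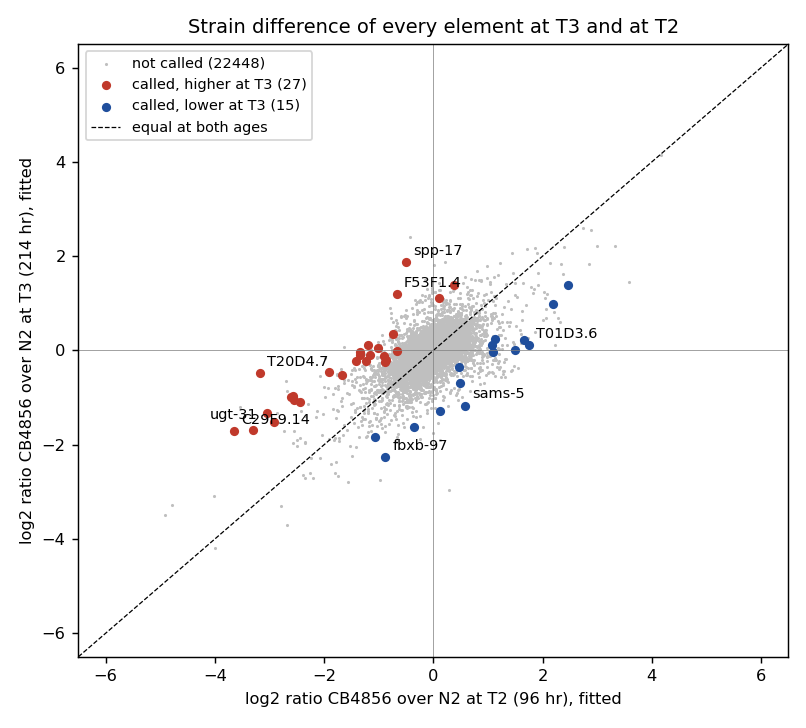
Fitted log2 ratio of CB4856 over N2 at T3 (vertical axis) against that at T2 (horizontal axis) for 22490 elements. The 27 red points lie above the diagonal of equal ratios and the 15 blue points below it, and most of the red points are at negative ratios at T2.

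By the fitted ratios, the strain difference was smaller at T3 than at T2 for 32 of the 42 elements and larger for 10. These directions are nominal for the 26 elements with a strain above background on no array of an age, since bounds alone do not show them. N2 was the higher strain at T2 for 28 of them and CB4856 for 14. Of the 27 elements with a higher ratio at T3, 25 had been higher in N2 at T2, and the normalized level of N2 was lower at T3 than at T2 for 26. Of the 15 with a lower ratio at T3, N2 was higher at T3 than at T2 for 12, and CB4856 was lower for 10. The level of N2 changed more than that of CB4856 for 34 of the 42, against 53.6% of all elements. Levels of a single strain at the 2 ages come from different arrays, and their age differences are given as descriptions, with no test. For the 16 elements in which CB4856 was above background on no array of either age, only the level of N2 could be seen to differ. The study describes hybridization differences from sequence variants between the strains as low on these arrays. Their part in these 16 elements was not tested. The sign of the fitted ratio turned for 11 elements, and for 3 of these the sign was the same on every array of an age and opposite at the other age.

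Only 16 of the 42 elements had both strains above background on at least 1 array of each age (9 higher, 7 lower), and these are called detected below. In 6 of them, T20D4.7, fbxa-59, mul-1, F14H12.6, sdz-35 and sams-5, a strain was above background on only 1 array of an age, and folds against it are nominal values near the background. In the other 26 (18 higher, 8 lower) a strain was above background on no array of T3 or of T2, and only a bound on the fold is known there. CB4856 was above background on no array of either age for 16 of the 42, and N2 for 0.

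Among the 9 detected elements that were higher at T3, T20D4.7 had the largest fitted interaction. Its log2 ratio was -0.61, -0.78, 0.22, -0.61 and -0.73 on the T3 arrays, against -3.22, -3.69, -3.05 and -2.85 on the T2 arrays. CB4856 averaged 7.87 ± 0.87 at T3 and 6.81 ± 0.26 at T2 in normalized log2 intensity, and N2 averaged 8.37 ± 0.47 at T3 and 10.01 ± 0.33 at T2 (SD, n = 5 and 4). By the fitted ratios N2 was 1.4-fold above CB4856 at T3 and 9.03-fold at T2, CB4856 being higher and N2 lower in old worms, a difference of 2.68 ± 0.30 (log2, SE, adjusted p = 0.00197). CB4856 was above background on 1 of 4 T2 arrays, so the nominal 9.03-fold is set against a level mostly not above background.

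The detoxification gene ugt-31, which encodes a UDP-glucuronosyltransferase that joins sugars to toxins and hormones, had a smaller strain difference at T3, with both strains at lower levels than at T2. Its ratios were -1.27, -1.93, -1.38, -0.78 and -1.60 at T3, against -3.03, -3.84, -3.39 and -2.45 at T2. The level of CB4856 was 1.79-fold lower at T3 than at T2, and that of N2 was 6.19-fold lower. The interaction was 1.70 ± 0.29 (adjusted p = 0.0343). The transporter gene pgp-8, of the P-glycoprotein family that pumps compounds out of cells, had ratios of -0.92, -1.29, -1.45, -0.64 and -1.24 at T3, against -2.28, -3.35, -1.98 and -2.30 at T2. CB4856 was 1.85-fold lower at T3 and N2 was 4.79-fold lower, an interaction of 1.35 ± 0.24 (adjusted p = 0.0459). In the F-box gene fbxa-59, a member of the family of adaptor proteins that bring targets to ubiquitin ligases, the ratios were -1.92, -1.82, -1.24, -1.46 and -1.27 at T3, against -3.40, -3.23, -2.50 and -2.66 at T2. N2 was 2.88-fold above CB4856 at T3 and 7.53-fold at T2 (interaction 1.38 ± 0.23, adjusted p = 0.0343). CB4856 was above background for fbxa-59 on 1 of 5 T3 arrays and 2 of 4 T2 arrays. All 3 genes were higher in N2 on each of the 9 arrays.

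For 5 further detected elements the advantage of N2 at T2 was gone or turned at T3. The saposin-like gene spp-17, of a family that includes proteins which pierce bacterial membranes, had ratios of 1.57, 2.71, 3.46, 1.13 and 0.91 at T3, against -0.87, 0.65, -0.17 and -0.84 at T2. Its level was 1.77-fold lower in CB4856 at T3 than at T2, and 8.46-fold lower in N2, so that CB4856 was 3.67-fold above N2 in old worms (interaction 2.38 ± 0.41, adjusted p = 0.0384). F53F1.4 had ratios of 1.10, 1.68, 1.53, 0.83 and 0.87 at T3, against -1.45, 0.01, -0.83 and -0.32 at T2, with an interaction of 1.87 ± 0.33 (adjusted p = 0.0451). For both genes CB4856 was the higher strain on every T3 array, whereas the T2 arrays were of both signs.

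The mucin-like gene mul-1 had ratios of 0.21, 0.27, 0.07, -0.07 and 0.06 at T3, against -1.29, -1.48, -1.25 and -0.84 at T2 (interaction 1.31 ± 0.15, adjusted p = 0.00197). Its level was near the limit of detection in old worms, where CB4856 was above background on 1 and N2 on 2 of 5 arrays. The C-type lectin genes clec-49 and clec-48, whose family binds carbohydrates and includes many genes that respond to infection, had the same direction. For clec-49 the ratios were -0.13, 0.42, 0.13, -0.17 and -0.35 at T3, against -0.67, -1.13, -0.89 and -1.96 at T2 (interaction 1.25 ± 0.22, adjusted p = 0.0443). For clec-48 they were 0.43, 0.96, 0.66, 0.04 and -0.01 at T3, against -0.23, -0.70, -0.16 and -1.21 at T2 (interaction 1.09 ± 0.16, adjusted p = 0.0182). Both strains had lower levels at T3 than at T2 in each of these 3 genes, CB4856 by between 1.58-fold and 2.43-fold and N2 by between 3.14-fold and 5.35-fold.

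**Figure D2:**
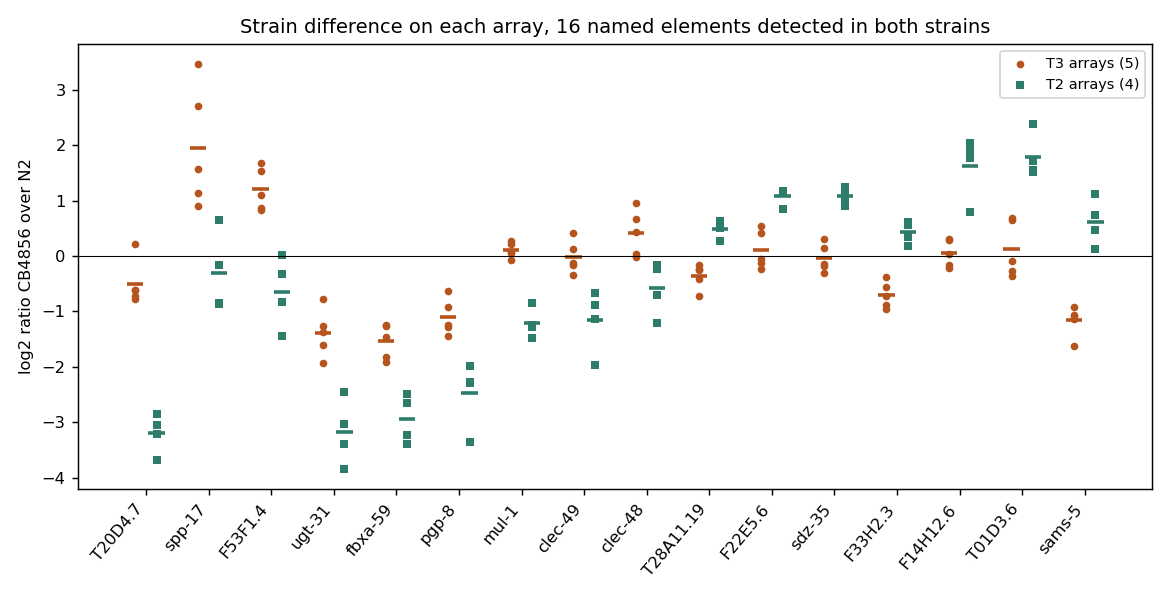
Log2 ratio of CB4856 over N2 on each T3 array (circles) and each T2 array (squares) for the 16 named elements detected in both strains at both ages, with bars at the group means. The T3 and T2 points of an element do not overlap for any of the 16, which were chosen by the difference of these ratios.

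Of the 7 detected elements that were lower at T3, the S-adenosylmethionine synthetase gene sams-5 had the largest fitted interaction. This enzyme family makes the methyl donor of the cell. Its ratios were -0.92, -1.63, -1.13, -1.08 and -1.06 at T3, against 0.73, 1.12, 0.47 and 0.12 at T2, so the sign turned on every array. CB4856 was 1.57-fold higher at T3 than at T2 and N2 was 5.35-fold higher (interaction -1.76 ± 0.20, adjusted p = 0.00197). Both strains were dim at T2, with CB4856 above background on 2 and N2 on 1 of 4 arrays. Another element of sams-5 was above background only in N2, on 2 of 5 T3 arrays, and did not pass (-0.36 ± 0.16, adjusted p = 0.771). The sams genes are alike in sequence, and their RNAs may share an element.

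T01D3.6 was the detected element with the largest age change in CB4856. Its ratios were -0.36, 0.65, 0.69, -0.10 and -0.27 at T3, against 1.72, 2.39, 1.55 and 1.51 at T2. The level of CB4856 was 10.8-fold lower at T3 than at T2, and that of N2 was 3.39-fold lower, so that a gene 3.35-fold higher in CB4856 in reproductive worms was at like levels in old ones (interaction -1.64 ± 0.25, adjusted p = 0.0182). Of the other elements of T01D3.6, 1 gave -1.44 ± 0.28 (adjusted p = 0.0720) and 1 gave -0.97 ± 0.60 (adjusted p = 0.917), both with the same sign and neither passing. F14H12.6 had ratios of 0.29, 0.31, 0.04, -0.16 and -0.22 at T3, against 1.91, 2.04, 1.76 and 0.79 at T2 (interaction -1.50 ± 0.15, adjusted p = 0.00197). Its level in CB4856 was 3.14-fold lower at T3, and N2 was dim at both ages, above background on 2 of 5 T3 arrays and 1 of 4 T2 arrays.

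In the remaining 4, the level of CB4856 at T3 was within 1.15-fold of that at T2, and N2 was between 1.64-fold and 1.96-fold higher at T3. F33H2.3 was among the bright genes at both ages, and its ratios were -0.56, -0.96, -0.73, -0.38 and -0.89 at T3, against 0.35, 0.62, 0.18 and 0.56 at T2. CB4856 averaged 11.90 ± 0.34 at T3 and 12.06 ± 0.34 at T2, and N2 averaged 12.60 ± 0.31 at T3 and 11.63 ± 0.39 at T2 (SD, n = 5 and 4, interaction -1.16 ± 0.17, adjusted p = 0.0182). The called element of T28A11.19 also turned its sign on every array, with ratios of -0.16, -0.41, -0.23, -0.73 and -0.25 at T3, against 0.54, 0.27, 0.50 and 0.63 at T2 (interaction -0.84 ± 0.13, adjusted p = 0.0254). Another element of T28A11.19 gave -0.50 ± 0.29 and did not pass (adjusted p = 0.891).

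The gene sdz-35, named as a zygotic transcript that depends on the embryonic factor SKN-1, had ratios of 0.31, -0.14, -0.18, 0.14 and -0.30 at T3, against 1.02, 0.91, 1.25 and 1.17 at T2 (interaction -1.12 ± 0.15, adjusted p = 0.0105). F22E5.6 was like it, with ratios of 0.54, -0.13, -0.23, 0.41 and -0.06 at T3, against 0.85, 1.17, 1.13 and 1.17 at T2 (interaction -0.97 ± 0.17, adjusted p = 0.0386). In both, CB4856 was about 2-fold above N2 at T2, by 2.12-fold and 2.11-fold, and the T3 arrays were of both signs. N2 was above background at T2 on 1 of 4 arrays for sdz-35 and on 4 of 4 for F22E5.6, so the fold of sdz-35 is nominal. Other elements of sdz-35, with CB4856 above background on no array, and of F22E5.6 gave -0.54 ± 0.18 and -0.65 ± 0.22, and neither passed (adjusted p = 0.492 each). At T2 the ratios of the other sdz-35 element were -0.25, -0.65, -0.19 and -0.20, opposite in sign to the called one, with neither strain above background.

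**Figure D3:**
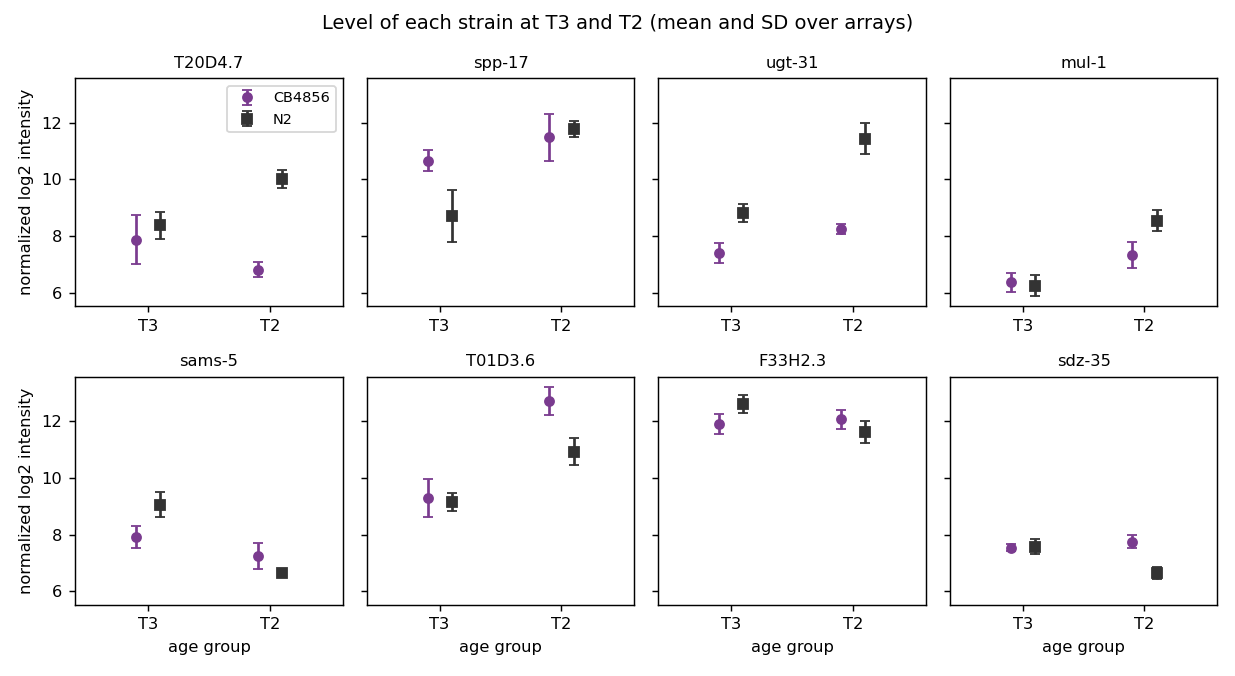
Normalized log2 intensity of CB4856 (circles) and N2 (squares) at T3 and at T2 for 8 named elements, as mean and SD over 5 T3 and 4 T2 arrays. In T20D4.7, spp-17, ugt-31 and mul-1 the N2 points lie lower at T3 than at T2, whereas in sams-5, F33H2.3 and sdz-35 they lie higher, and in T01D3.6 both strains lie lower.

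Where a strain was above background on no array of an age, folds are lower bounds. They set the mean of the brighter strain or age against the dimmest detectable signal of each array, and they are open to dye bias. Each was computed with the arrays on the quantile scale and with only their average intensities made alike (Aquantile), and the smaller of both is given. The pals genes formed one such group. The pals family is large in C. elegans, and some of its members, pals-22 and pals-25 among them, are known to control the response to intracellular pathogens. CB4856 was above background on no T3 and no T2 array for any called pals element, whereas N2 was above it on all 9 arrays for pals-24 and for a pair of pals-23 elements. N2 was at least 2.74-fold above CB4856 at T3 and at least 8.73-fold above it at T2 by the brighter pals-23 element (adjusted p = 0.00997), and at least 1.73-fold at T3 and at least 4.97-fold at T2 by the other (adjusted p = 0.0310). For pals-24 the bounds were at least 1.66-fold at T3 and at least 5.32-fold at T2 (adjusted p = 0.0307).

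The N2 level itself, measured at both ages, was 7.91 at T3 and 9.94 at T2 for the brighter pals-23 element, and 7.21 at T3 and 9.21 at T2 for pals-24. These genes were therefore about 4-fold lower in old than in reproductive N2 worms, by 4.08-fold and 4.00-fold. C29F9.14, whose name places it on the same clone as pals-23 (C29F9.3) and pals-24 (C29F9.4), had the same pattern. N2 was above background on all 9 arrays and CB4856 on 0 of 5 T3 and 1 of 4 T2 arrays, and N2 was at least 2.96-fold above CB4856 at T3 (adjusted p = 0.00197). In the RefSeq order of genes (assembly WBcel235) pals-23 and pals-24 have 1 gene between them, and pals-25 of the same family gave 0.52 ± 0.17 without passing (adjusted p = 0.492). Another pals-23 element, named after its values were seen, passed as well (adjusted p = 0.0451), and the last one was above background in neither strain at either age.

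In 6 more of the named bounded elements with a higher ratio at T3, the N2 level was lower at T3 than at T2. For the BTB-domain gene btb-14, N2 exceeded CB4856 by at least 1.93-fold at T3, where CB4856 was above background on 0 of 5 arrays, whereas at T2 it was above it on 2 of 4 (adjusted p = 0.00197). For sdz-6, another SKN-1-dependent zygotic transcript, N2 was at least 1.04-fold above CB4856 at T3 and at least 2.47-fold at T2 (adjusted p = 0.00468). The hedgehog-related gene grd-4, which belongs to a family of secreted proteins of the epidermis, had a bound of at least 2.71-fold in favour of N2 at T2 and none above 1 at T3 (adjusted p = 0.0328). At T2, N2 exceeded CB4856 by at least 1.16-fold in Y32B12C.1 (adjusted p = 0.00197), by at least 1.5-fold in K03D3.2 (adjusted p = 0.00197) and by at least 1.16-fold in the C-type lectin gene clec-10 (adjusted p = 0.0451), and no bound above 1 could be given for these 3 genes at T3.

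The called element of the F-box gene fbxa-24 differed from these, since both strains had higher levels at T3. N2 was at least 2.27-fold higher at T3 than at T2, where it was above background on 0 of 4 arrays, and CB4856 was above background on 5 of 5 T3 arrays and 1 of 4 T2 arrays. Its ratios were 1.02, 0.90, 1.15, 1.10 and 1.4 at T3, against 0.25, 0.35, -0.07 and -0.15 at T2, and CB4856 was 2.16-fold above N2 in old worms (adjusted p of the interaction = 0.0280). Another element of fbxa-24, detected in both strains at both ages, gave an interaction of 1.12 ± 0.21 in the same direction, short of the threshold (adjusted p = 0.0687). By this other element the N2 level was 8.11 at T3 and 8.16 at T2, and the fitted ratio was 0.19 at T3 and -0.93 at T2. It thus showed neither a higher N2 level at T3 nor a 2-fold excess of CB4856 there.

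Among the named bounded elements with a lower ratio at T3, 3 had a larger fitted strain difference in old worms. In these 3, N2 was at a higher level than at T2 and CB4856 was above background on none of the 9 arrays. Their bounds do not by themselves show that the difference was larger. N2 exceeded CB4856 in the F-box gene fbxb-97 by at least 4.25-fold at T3 and at least 1.14-fold at T2 (adjusted p = 0.00198). In C07G1.7 the difference was at least 2.19-fold at T3, where N2 was above background on 5 of 5 arrays, and at T2 neither strain was above it (adjusted p = 0.00197). Its N2 level was at least 2.01-fold higher at T3 than at T2. In Y48G9A.7 it was at least 3.02-fold at T3 (adjusted p = 0.0254), and N2 was above background on 2 of 4 arrays at T2, which gave no bound above 1.

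In the other named elements CB4856 was the higher strain at T2. The chemoreceptor gene str-150, of a family of receptors in sensory neurons, was above background in CB4856 on 1 of 5 T3 arrays and 4 of 4 T2 arrays, and in N2 on 0 of 5 T3 arrays and 1 of 4 T2 arrays. No bound above 1 could be given at T3, and at T2 CB4856 was nominally 3.15-fold above N2 (adjusted p = 0.0148). Another str-150 element was above background in neither strain. For M01G12.10, CB4856 exceeded N2 by at least 1.53-fold at T2 (adjusted p = 0.0254). Its near neighbour M01G12.9, with 4 genes between them in the RefSeq order and named after its values were seen, had the opposite pattern, and N2 was at least 1.33-fold above CB4856 at T3 and at least 2.26-fold at T2 (adjusted p = 0.0254).

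Outside the rule for named genes were 8 further called elements, listed here after their values were seen. T05C3.3, where both strains were above background at T3 but N2 on no array at T2, was 2.63-fold higher in CB4856 at T3 and at least 1.11-fold at T2 (interaction 1.01 ± 0.15, adjusted p = 0.0182). C17H12.6 was above background on no T3 array in either strain, and its N2 level was at least 3.45-fold higher at T2 than at T3. The neuropeptide gene lury-1 had N2 above CB4856 by at least 1.42-fold at T2, and C04E12.4 by at least 1.16-fold, with no bound above 1 at T3 for either. For W04E12.7 the bound was at least 1.05-fold in favour of N2 at T2. For F14D2.5 N2 exceeded CB4856 by at least 3.12-fold at T3 and at least 1.23-fold at T2, and its N2 level was higher at T3 than at T2. In T10D4.19 and ZK1053.3 CB4856 was the higher strain at both ages, and at T2 it was at least 3.58-fold and at least 3.44-fold above N2, which was above background on no T2 array.

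The T1 arrays entered the fit only through the normalization, the dye term and the spread, and they show what the strain difference of these elements was in juvenile worms. Of the 19 called elements that were over 2-fold higher in N2 at T2, 7 were over 2-fold higher in N2 at T1 and 7 at T3. Of the 8 that were over 2-fold higher in CB4856 at T2, 0 were so at T1 and 1 at T3. The elements were called for a change between T2 and T3, so fewer at T3 follows in part from this choice. Over all elements, 239 were over 2-fold higher in N2 at T2 and 231 at T3. In CB4856 the counts over all elements were 136 at T2 and 114 at T3. The T1 ratio had the sign of the T2 ratio for 36 of 42 elements, but was nearer in size to the T2 ratio than to the T3 ratio for only 15. The strain difference of C29F9.14, for example, was present at all ages, with N2 above background on 5 of 5 T1 arrays and CB4856 on none. Among the named genes, pgp-8, mul-1, sdz-6, grd-4, sdz-35, F14H12.6 and T28A11.19 were above background in neither strain at T1. The same held for Y32B12C.1, K03D3.2, C07G1.7, fbxb-97, str-150 and M01G12.10. Detection in these genes thus came after the juvenile age. In sdz-6, grd-4, K03D3.2, fbxb-97 and C07G1.7 it came in N2 alone, CB4856 being above background on no array. F33H2.3 had the same fitted ratio at T1 and T2, 0.48 at each, and -0.68 at T3.

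**Figure D4:**
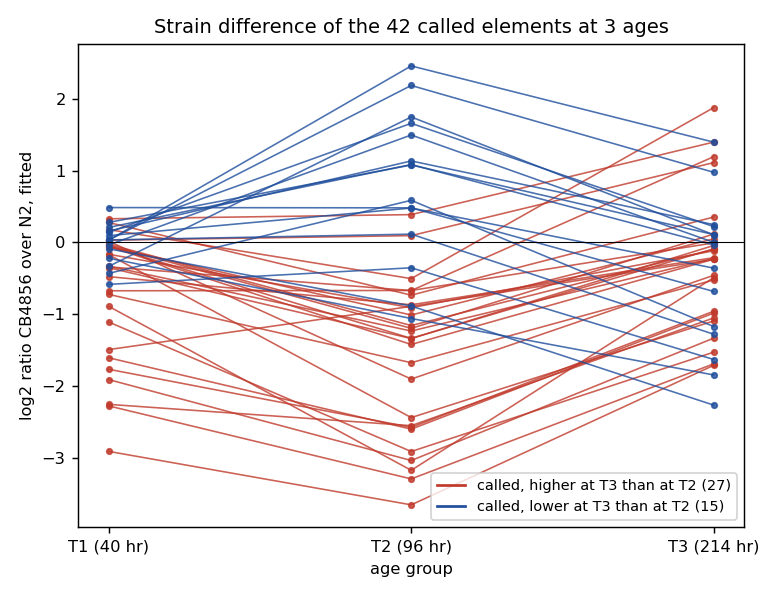
Fitted log2 ratio of CB4856 over N2 at T1, T2 and T3 for the 42 called elements, each a line, red where the ratio was higher at T3 than at T2 (27) and blue where it was lower (15). Of the 42 lines, 32 lie nearer to 0 at T3 than at T2, and lines of dim elements show sizes that depend on the handling of background.

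The calls were spread thinly over the 43 gene lists, 9 of which held a called element and 34 none. The shares that follow stand against 0.187% of all elements called, 0.120% higher and 0.0667% lower. The list of lysozymes, saposin-like, antimicrobial and pals genes had 5 of 178 elements called (2.81%), all higher at T3 (spp-17, pals-24 and 3 of pals-23), and a median interaction of 0.01. The C-type lectins had 3 of 243 (1.23%), all higher (clec-10, clec-48 and clec-49), with a median of 0.01. The F-box genes had 4 of 404 (0.99%), of which fbxa-59 and fbxa-24 were higher, whereas fbxb-97 and sdz-35, which the list takes in by its name, were lower, with a median of -0.01. Single elements were called among the UDP-glucuronosyltransferases (1 of 78, 1.28%), the ABC transporters (1 of 67, 1.49%), the MATH and BTB genes (1 of 151, 0.662%), the hedgehog-related and molting genes (1 of 109, 0.917%) and the chemoreceptors (1 of 1450, 0.069%), where 29 elements had both strains above background at both ages. The embryo markers had sdz-6 higher and sdz-35 lower, 2 of 64 (3.12%). The lists were chosen with results of these data known, and members of a list that share an element or a region, as the pals elements do, are not separate observations.

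Some lists held no called element but had many members displaced in one direction, none of which passed adjustment over all elements. In the major sperm proteins, which build the motile skeleton of the crawling worm sperm and signal to oocytes, 14 of 18 elements had a lower ratio at T3 and 13 an unadjusted p under 0.05 (72.2%, against 3.01% of all elements), with a median interaction of -1.51. The median ratio of the 18 elements was -0.15, -0.54, -0.40, -0.38 and 0.09 on the T3 arrays, against 1.81, 2.41, 1.03 and -0.16 on the T2 arrays. CB4856 was thus above N2 on 3 of the 4 T2 arrays, and replicate 4, the dye exchange of replicate 1, was at the level of the T3 arrays. The genes of this family are nearly identical, so their elements may read the same RNAs.

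The element of msp-10 shows the pattern, with ratios of -0.52, -0.98, -0.81, -0.34 and -0.06 at T3, against 2.11, 2.29, 1.08 and 0.00 at T2 (interaction -1.88 ± 0.45, adjusted p = 0.210). The level of msp-10 was higher at T3 than at T2 in both strains, by 1.48 in CB4856 and by 3.39 in N2 on the log2 scale. The list called other sperm genes held 105 elements, among them those of the nspa, nspb, nspc, nspd and nspe gene families. Of the 105, 78 had a lower ratio at T3 and 25 an unadjusted p under 0.05 (23.8%, against 3.01% of all elements). The T3 and T2 ratios did not overlap for 13, all lower at T3, against 2.80% of all elements in either direction. The displacement of the list without the nsp families was not tested. The median interaction of the list was -0.23, with -0.12 without background correction, -0.40 with a normexp offset of 10, -0.55 with local background subtracted and -0.51 over elements above background in both strains on at least 5 arrays. Not all members had the pattern of msp-10. The level of nspc-15 was lower at T3 in both strains, CB4856 being 10.98 at T3 and 12.82 at T2, and N2 11.85 at T3 and 12.44 at T2. An element of nspe-5 had a higher ratio at T3 (interaction 1.24 ± 0.48, adjusted p = 0.630). In an element of ssp-31, a sperm-specific gene, the ratios were 0.31, -0.44, 0.24, -0.09 and 0.60 at T3, against 1.97, 2.22, 2.46 and 2.31 at T2, with replicate 4 as high as the rest (interaction -2.11 ± 0.49, adjusted p = 0.174). Another element of ssp-31 gave -0.38 ± 0.49 (adjusted p = 0.996), with N2 above background on no T2 array. The oocyte, eggshell and early embryo genes had 0 of 50 elements at an unadjusted p under 0.05 and a median of -0.03, and the germ line markers 0 of 24 and a median of -0.10.

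Cuticle collagens, which the epidermis secretes to build the cuticle, were displaced the other way. Of 208 elements 152 had a higher ratio at T3 and 36 an unadjusted p under 0.05 (17.3%, against 3.35% of all elements), with a median interaction of 0.24. The list median was 0.16, 0.26, 0.13, 0.12 and 0.05 on the T3 arrays, against 0.00, 0.01, 0.03 and -0.04 on the T2 arrays, so all T3 arrays were above all T2 arrays. Only 109 of the 208 had both strains above background at both ages, and the median varied from 0.11 without background correction to 0.85 over collagen elements above background in both strains on at least 5 arrays. The element of col-133 had ratios of 1.03, 2.03, 1.93, 0.85 and 0.93 at T3, against 0.05, -0.49, 0.35 and 0.19 at T2 (interaction 1.36 ± 0.25, adjusted p = 0.0639). Its level was lower at T3 than at T2 in both strains, CB4856 being 13.96 at T3 and 14.87 at T2, and N2 12.60 at T3 and 14.84 at T2 in log2 intensity. Adjusted p-values of 0.0654 for col-125, 0.0809 for col-154 and 0.0833 for col-155 were also close to the threshold, and these 4 genes were chosen for their small p.

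**Figure D5:**
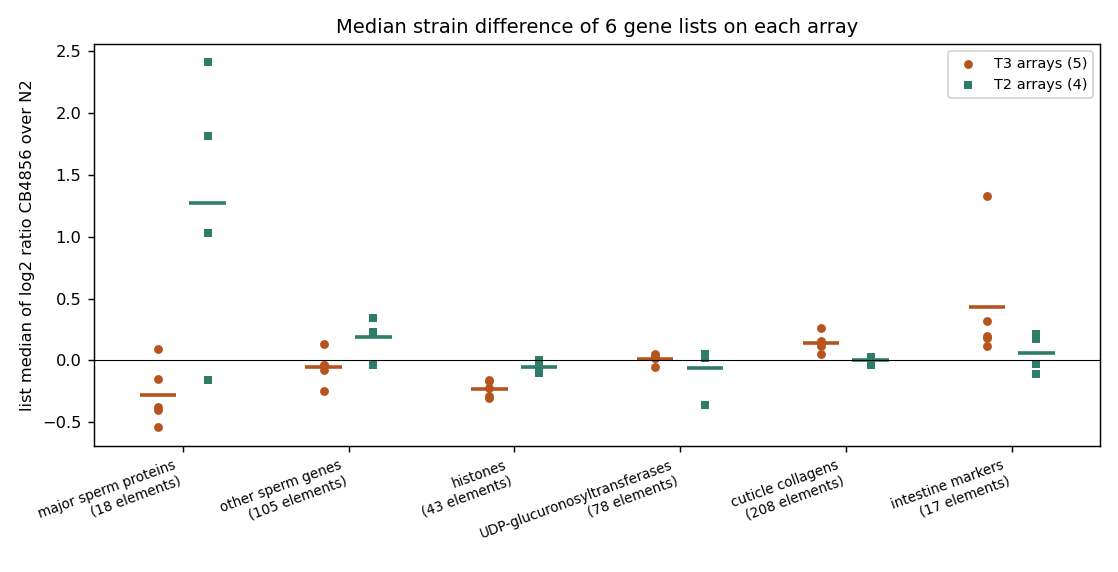
Median log2 ratio of CB4856 over N2 over the elements of 6 gene lists, on each T3 array (circles) and each T2 array (squares), with bars at the means. The major sperm proteins reach 2.41 on a T2 array and lie between -0.54 and 0.09 on T3 arrays, and the cuticle collagens lie higher on every T3 array than on any T2 array.

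The intestine markers had a list median of 0.20, 1.33, 0.32, 0.12 and 0.18 on the T3 arrays, against 0.17, -0.11, 0.21 and -0.03 on the T2 arrays. Of their 17 elements 16 were higher at T3 (94.1%, against 49.8% of all elements) and 0 called. Only 1 was higher at an unadjusted p under 0.05 (5.88%, against 3.35% of all elements). T3 replicate 2 stood apart in this list and had the largest collagen median. Without T3 replicate 2 the median interaction of the collagens was 0.15 and that of the intestine markers 0.14, against 0.42 with it. The part of intestine RNA in the collagen values was not tested. The histones, whose genes are transcribed mostly in dividing cells, had a median of -0.17, -0.30, -0.16, -0.29 and -0.22 at T3, against -0.10, 0.00, -0.03 and -0.09 at T2, with 28 of 43 elements lower at T3, 6 of them at an unadjusted p under 0.05 (14.0%, against 3.01% of all elements), and 0 called. Their median interaction of -0.12 was -0.21 without T2 replicate 1. Among the UDP-glucuronosyltransferases, ugt-25 had ratios of -1.50, -2.50, -0.66, -0.93 and -0.76 at T3, against -3.70, -4.25, -2.88 and -3.92 at T2, close to ugt-31 in pattern but short of the threshold (interaction 2.33 ± 0.47, adjusted p = 0.0860). Of the 78 elements of this family 12 were higher at an unadjusted p under 0.05 (15.4%, against 3.35% of all elements) and 1 lower, and the median interaction of 0.10 was 0.03 without T2 replicate 2.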

How the data were processed

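Arrays with 2 colours of both strains were analysed from the deposited scanner files, in which the authors' spot-finding software gives a mean intensity and a local background for each spot and dye. The authors also deposited normalized log2 ratios of N2 over CB4856, used with the sign turned as an alternative. Mean intensities were corrected with normexp (offset 50), and normalized by loess within arrays and by quantiles between arrays, with no averaging of spots. A linear model with T1, T2, T3 and dye was fitted over 14 arrays with limma 3.58.1 in R 4.3.3, and T3 minus T2 of the log2 ratio was tested with Benjamini-Hochberg adjustment over 22490 elements. A strain was called above background where its mean intensity exceeded the median local background by 2 SD of that background. The fit was tested on simulated data. Named genes were the called elements with both strains above background at both ages (at most 15 in each direction), the 5 dim elements of smallest p in each direction, and at most 4 called elements of a list in each direction. Lower bounds on folds, computed on the quantile scale and after Aquantile normalization, are the smaller of both, a choice made after seeing the data. Members and gene lists were chosen with earlier results of these data known. Names came from RefSeq (WBcel235) for 17358 elements by gene number and 4055 by coding sequence name, and 1077 kept the name of the array. The number of arrays limits the precision. Flag codes of the scanner were not explained in the sources used here.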

Additional observations from a re-analysis of the deposited data

Results flagged for a closer look

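The 32 named elements were chosen among those that passed the test of the interaction, so their flag adds no further test. Their values are given here on the log2 scale as T3 minus T2. Values above 0 were 2.68 for T20D4.7, 2.38 for spp-17, 1.94 for C29F9.14, 1.87 for F53F1.4, 1.70 for ugt-31, 1.62 and 1.60 for elements of pals-23, 1.62 for pals-24, 1.50 for btb-14, 1.44 for sdz-6, 1.38 for fbxa-59, 1.35 for pgp-8, 1.31 for mul-1, 1.25 for clec-49, 1.19 for grd-4, 1.09 for clec-48, 1.06 for Y32B12C.1, 1.06 for K03D3.2, 1.02 for fbxa-24 and 0.65 for clec-10. Values below 0 were -1.76 for sams-5, -1.64 for T01D3.6, -1.50 for F14H12.6, -1.44 for str-150, -1.39 for C07G1.7, -1.38 for fbxb-97, -1.28 for Y48G9A.7, -1.16 for F33H2.3, -1.12 for sdz-35, -0.97 for F22E5.6, -0.89 for M01G12.10 and -0.84 for T28A11.19. The sizes for dim elements depend on the handling of background.

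Single arrays lay far from the others of their age in 5 of 76 groups of values tested with Dixon's criterion, and chance alone marks about 1 in 20 groups. T3 replicate 3 had a ratio of 0.22 for T20D4.7, where the other T3 arrays lay between -0.78 and -0.61, and -0.98 for sdz-6. T2 replicate 1 had 0.85 for F22E5.6. The median ratio of the UDP-glucuronosyltransferases was -0.36 on T2 replicate 2, and that of the intestine markers was 1.33 on T3 replicate 2.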

How the results depend on the processing

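Against 42 calls, 27 higher and 15 lower, a threshold of 0.1 on the adjusted p gave 69 calls, a normexp offset of 10 gave 28, subtraction of local background gave 5, and loess alone or with Aquantile normalization gave 26 each. The share of higher calls was 64.3%, and 38.5% in these last. Restriction to elements above background in both strains on 5 of 9 arrays left 3 calls, to the most common scanner flag 1, and to flag code 3, an alternative chosen after seeing the data, 1. A fit of the 9 arrays alone gave 28 calls, a dye term for each age 20, dye exchanges averaged 0, scan session as a block 17, and scan sessions 1, 2 and 3 as blocks, also chosen after seeing the data, 10. The authors' table gave 150 calls, 21 of them shared, and single-channel limma 88, with 38 shared. A linear model of strain, age group and their product on the 9 arrays gave 9 after Benjamini-Hochberg adjustment. At an unadjusted p under 0.01, the study's threshold, it gave 204 of 22490 elements, below the share of 0.01 that chance alone gives. This model took the 2 strains of an array as separate samples, with no array or dye term. The 2 signals of a spot correlated by 0.423, which such a model leaves in its error. It gave 741 elements at an unadjusted p under 0.05, against 1432 in the main fit, so its count does not show a lack of differences. The study's own model differed, with physiological age and arrays normalized together with those of recombinant lines. Leaving out 1 array gave between 11 calls (without T2 replicate 4) and 50 (without T2 replicate 2), with 18 without T2 replicate 1, 17 without T3 replicate 2, 20 without T3 replicate 4, 25 without T3 replicate 5 and 26 without T3 replicate 1. With the replicate block 37 elements passed, 30 of them shared. Deviations of T3 and T2 arrays of equal number correlated by 0.278, 0.212, 0.267 and -0.0627, and T3 replicate 3 correlated best with T2 replicate 4 (0.326), so a pairing held for some numbers but was not established for all, and none was assumed. The cause of these changes was not tested. None of the 42 changed direction in 1148 recomputed values, and 565 of these passed again. The 42 were called on these same arrays, and loess alone and Aquantile normalization gave the same ratios. A kept direction is therefore not independent support. No median of the major sperm proteins could be had with only the most common flag. Many elements are near background, which limits the sizes of their ratios.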
